A study of Mus musculus with 19 samples.

Results

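A group of 10 genes of the liver sinusoidal endothelium was followed through 3 reproductive stages of the mouse. They are Stab1, Stab2, Lyve1, Clec4g, Fcgr2b, Kdr, Tek, Pecam1, Vwf and Oit3. The genes were taken by symbol from a table of 51826 gene entries, and all 10 were present, each with 1 value in every mouse. Liver RNA was sequenced from 19 female Balb/c mice (labelled Balbc) aged 12 weeks, with 1 library per animal (named by stage and animal number, as in NUL_226, LAC_36 and ID6_201) and no genetic change or drug named in the labels of any group. There were 7 nulliparous mice, which had not given birth, 6 mice at lactation day 10 and 6 mice at involution day 6, the stage that follows weaning. The study asked how the maternal liver changes through lactation and weaning. The methods name 2 suppliers of mice without saying which animal came from which, and the tissue was flash-frozen liver from which poly(A) RNA was taken, so the values are averages over all liver cells.

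Liver sinusoids are lined by a fenestrated endothelium without a continuous basement membrane, which lets plasma reach the hepatocytes directly. These cells are among the most active scavengers of the body and clear hyaluronan, collagen fragments, modified lipoproteins and small immune complexes from the blood through receptors on their surface. They also keep general endothelial genes for junctions and for vascular growth factor signaling, and they are known to release factors that act on the neighboring hepatocytes.

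Several of these genes were lower at lactation day 10 than in nulliparous or involuting mice. In lactation, 4 of the 10 genes fell (Fcgr2b, Clec4g, Oit3 and Tek), that is, passed limma at an adjusted p under 0.05, against 6.49% of all genes tested. Between lactation and involution, 6 of the 10 rose (Clec4g, Fcgr2b, Oit3, Kdr, Pecam1 and Tek), against 18.1% of all genes tested. The stabilins Stab1 and Stab2, the hyaluronan receptor Lyve1 and the clotting protein gene Vwf did not pass the test in these 2 comparisons. The values are shares of the RNA of whole tissue. Fewer sinusoidal endothelial cells, less RNA of these genes per cell and more RNA from other cells therefore cannot be told apart.

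Promoter sequences are shown for 3 genes that sort by behavior, Clec4g and Tek, which fell in lactation and rose afterward, and Stab1, which passed in neither comparison. RefSeq start sites on GRCm38.p6 matched 6 of the 10 genes, namely Stab1, Stab2, Clec4g, Fcgr2b, Kdr and Tek. By GENCODE release M21 the window of Fcgr2b lay wholly inside its gene and 83 bases of that of Stab2 did, so both were left out, and the window of Kdr reached in by 3 bases. Each line gives the 250 bases before the start, 5′ to 3′ on the gene's own strand, and capitals mark GGAAG or its reverse complement CTTCC, the core that ETS factors of the endothelium recognize. The windows are chr8:3720652-3720901 on the minus strand for Clec4g, chr4:94739039-94739288 on the plus strand for Tek and chr14:31168642-31168891 on the minus strand for Stab1.
Clec4g: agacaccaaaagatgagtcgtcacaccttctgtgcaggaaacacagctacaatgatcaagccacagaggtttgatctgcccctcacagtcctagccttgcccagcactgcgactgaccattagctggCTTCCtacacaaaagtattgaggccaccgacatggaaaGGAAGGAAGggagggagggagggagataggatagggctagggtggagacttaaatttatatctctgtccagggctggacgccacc
Tek: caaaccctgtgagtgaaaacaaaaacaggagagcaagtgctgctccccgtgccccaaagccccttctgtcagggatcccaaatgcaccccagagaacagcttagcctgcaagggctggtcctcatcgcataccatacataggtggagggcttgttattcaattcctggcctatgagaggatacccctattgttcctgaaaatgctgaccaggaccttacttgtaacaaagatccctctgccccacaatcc
Stab1: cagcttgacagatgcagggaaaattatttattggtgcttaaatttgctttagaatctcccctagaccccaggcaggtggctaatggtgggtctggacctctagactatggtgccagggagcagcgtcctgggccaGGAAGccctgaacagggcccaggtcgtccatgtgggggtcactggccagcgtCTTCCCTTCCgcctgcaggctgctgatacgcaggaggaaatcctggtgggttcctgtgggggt
The ETS core was in 3 of the 4 windows kept, in all but that of Tek, and in 64.1% of the 32851 promoter windows of the same length, which were not screened in this way. Clec4g held 3 copies, of which 2 overlap by 1 base, and Stab1 also held 3. The KLF core CACCC or GGGTG was in 3 of the 4 windows, those of Clec4g, Kdr and Tek but not that of Stab1, and in 52.0% of all windows. Neither AGATAA, read by GATA factors, nor AACAGGAA, the joint site of FOX and ETS factors, was found in any of the 4 windows on either strand, against 9.99% and 2.25% of all windows. These are matches of letters only.

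The values are TPM, a measure that gives each gene as a share of all transcripts in a library corrected for transcript length, so levels of different genes can be set side by side. Depth is not kept in TPM, and the precision of a value is therefore known only from the spread between mice. All 10 genes lay above the filter on low values used for the tests, a mean of 0.1 TPM over the 19 mice, which 16230 entries passed. At or above 1 TPM there were 11244 to 11623 genes in nulliparous, 11209 to 11448 in lactating and 11390 to 11797 in involuting livers. The 10 most abundant genes of each library took 25.7 to 28.0%, 29.0 to 31.2% and 26.7 to 28.8% of its TPM in those groups. Albumin alone took 4.25 to 6.70%, 8.11 to 12.7% and 5.53 to 8.26%. No pair of libraries held identical values. The animal numbers in the sample names fall in a range under 200 (3 nulliparous and 3 lactating mice) and a range of 200 and above (4 nulliparous, 3 lactating and all 6 involuting mice), and 25.6% of all genes tested differed between these ranges among nulliparous and lactating mice at an adjusted p under 0.05.

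Clec4g was the most abundant of the 10 genes in every group and Fcgr2b came next, and the mice of these neighbors did not overlap with each other or with any gene below. Together they made up 58.5 to 72.2% of the summed TPM of the 10 genes. In nulliparous livers the order of mean TPM below them was Oit3 (14.0), Stab1 (13.6), Stab2 (12.0), Kdr (10.7), Pecam1 (7.68), Tek (4.14), Vwf (3.80) and Lyve1 (2.59). Of these neighbors only Pecam1 and Tek had separate ranges over mice. Within single mice Kdr was above Pecam1 in 7 of 7, whereas in the other neighboring pairs with overlapping ranges the gene of higher mean was the higher one in 4 to 6 of the 7 mice. By median TPM Stab1 preceded Oit3. Lyve1 was the least even gene among nulliparous mice, with a coefficient of variation of 69.3%, against 7.47% for Fcgr2b.

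**Figure D1:**
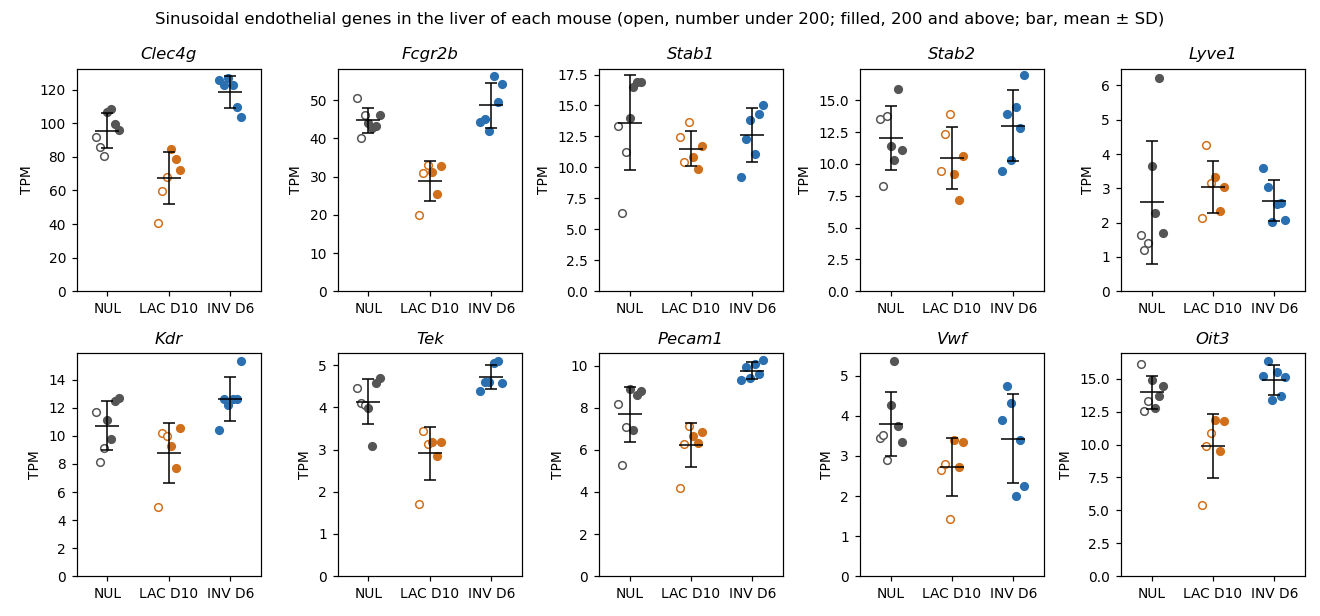
TPM of each of the 10 genes in every mouse by stage (NUL, nulliparous, n = 7; LAC D10, lactation day 10, n = 6; INV D6, involution day 6, n = 6), with animal numbers under 200 as open and those of 200 and above as filled points, and bars for the mean ± SD. Fcgr2b and Oit3 are lower in every lactating than in every nulliparous mouse, whereas the stages overlap in Stab1, Stab2, Lyve1 and Vwf.

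The endocytic receptors were examined at the outset. Fcgr2b, an inhibitory receptor for IgG that takes up small immune complexes in the sinusoid and is also made by macrophages and B cells, ranged from 40 to 50.6 TPM in nulliparous mice (median 44.1), from 20.1 to 33.0 at lactation day 10 (median 31.1) and from 42.1 to 56.5 at involution day 6 (median 47.4). Every lactating mouse was below every nulliparous and every involuting mouse. The mean was 44.7 ± 3.34 (SD, n = 7) TPM in nulliparous mice, 28.9 ± 5.15 (SD, n = 6) in lactation, 0.646 of the nulliparous mean, and 48.6 ± 5.81 (SD, n = 6) in involution, 1.68 times the lactation mean. On the log2(TPM + 1) scale, which understates the change of genes with low TPM, Fcgr2b fell by 0.63 (SE 0.10) in lactation, with an adjusted p of 0.000707 in limma. It rose by 0.74 (SE 0.11) to involution, with an adjusted p of 7.28e-05 in limma.

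Clec4g, a C-type lectin of sinusoidal and lymph node endothelium also called LSECtin, ranged from 80.7 to 109 TPM in nulliparous mice (median 95.8), from 40.4 to 84.8 in lactation (median 70.2) and from 104 to 127 in involution (median 123). Of 6 lactating mice, 5 were below all nulliparous mice, and all 6 were below all involuting mice. Clec4g fell by 0.53 (SE 0.13, adjusted p = 0.0124 in limma) in lactation and rose by 0.84 (SE 0.13, adjusted p = 0.000162 in limma) to involution, when its mean was 1.76 times that of lactation. It was also the only one of the 10 genes that differed between the ranges of animal number among nulliparous and lactating mice, higher by 0.37 (SE 0.10, adjusted p = 0.0209 in limma) at numbers of 200 and above, so 1 of 10 passed against 25.6% of all genes. Under median-ratio scaling that difference was 0.29, with an adjusted p of 0.112 in limma. Within each range the lactating and nulliparous mice did not overlap, with 40.4 to 68.2 against 80.7 to 91.7 TPM under 200 and 72.2 to 84.8 against 95.8 to 109 TPM at 200 and above.

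Stab1 and Stab2 encode the stabilins, large scavenger receptors. Stabilin 1 is also made by macrophages, and stabilin 2 is the main hyaluronan clearance receptor of the sinusoid. Stab1 ranged from 6.32 to 16.9 TPM in nulliparous mice (median 14.0), from 9.86 to 13.7 in lactation (median 11.3) and from 9.20 to 15.0 in involution (median 13.1). Stab2 ranged from 8.28 to 15.9 TPM (median 11.4), from 7.13 to 14.0 (median 10.0) and from 9.46 to 17.0 (median 13.4) in the same groups. All 3 groups overlapped in both genes. The log2 difference of lactation from nulliparous was -0.17 (95% interval -0.53 to 0.18) for Stab1 and -0.19 (-0.52 to 0.14) for Stab2, with adjusted p of 0.590 and 0.508 in limma. From lactation to involution the difference was 0.11 (-0.26 to 0.49) for Stab1 and 0.29 (-0.05 to 0.63) for Stab2, with adjusted p of 0.684 and 0.205 in limma. The sign of the Stab1 difference turned under median-ratio scaling (-0.04) and quantile normalization (-0.01).

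For Stab1 the sign of the lactation estimate differed between the ranges of animal number. At numbers of 200 and above, nulliparous mice ranged from 14.0 to 16.9 TPM and lactating mice from 9.86 to 11.7, without overlap. Under 200, nulliparous mice ranged from 6.32 to 13.4 TPM and lactating mice from 10.5 to 13.7, with overlap. The lactation difference was -0.53 (SE 0.19) in the upper range and 0.27 (SE 0.20) in the lower range, and neither passed (adjusted p = 0.0969 and 0.429 in limma). When only mice numbered 200 and above were fitted, the upper-range difference passed, with an adjusted p of 0.0399 in limma. The difference between the 2 changes was -0.80 (SE 0.27, adjusted p = 0.264 in limma). None of the 10 genes passed that test of the difference in limma, 2 of them had an unadjusted p under 0.05 (Stab1 and Lyve1), and 0.185% of all genes passed it.

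Lyve1, a hyaluronan receptor of sinusoidal and lymphatic endothelium and of some macrophages, ranged from 1.21 to 6.22 TPM in nulliparous mice (median 1.71), from 2.14 to 4.27 in lactation (median 3.11) and from 2.01 to 3.58 in involution (median 2.55). The nulliparous range took in those of both other groups, and NUL_226 was the highest of all. Under 200, nulliparous mice ranged from 1.21 to 1.64 TPM and lactating mice from 2.14 to 4.27, without overlap. At 200 and above the ranges were 1.71 to 6.22 and 2.33 to 3.32 TPM, with overlap. Lyve1 was the only one of the 10 genes with a positive estimate in lactation, 0.28 (95% interval -0.19 to 0.74, adjusted p = 0.50 in limma). That estimate was 0.76 (SE 0.27) under 200 and -0.10 (SE 0.25) at 200 and above, with adjusted p of 0.0881 and 0.887 in limma, and the test of the difference gave -0.86 (SE 0.37, adjusted p = 0.368 in limma). From lactation to involution the difference was -0.15 (-0.63 to 0.33, adjusted p = 0.682 in limma).

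Oit3, a secreted zona pellucida domain protein that marks sinusoidal endothelium in the liver, ranged from 12.5 to 16.1 TPM in nulliparous mice (median 13.7), from 5.37 to 11.9 in lactation (median 10.4) and from 13.4 to 16.4 in involution (median 15.2). Every lactating mouse was below every mouse of the other groups. Oit3 fell by 0.49 (SE 0.12, adjusted p = 0.0172 in limma) in lactation and rose by 0.58 (SE 0.13, adjusted p = 0.00339 in limma) to involution.

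The receptors for vascular growth factors and the junction gene were considered next. Tek encodes TIE2, the receptor for angiopoietins. It ranged from 3.09 to 4.69 TPM in nulliparous mice (median 4.10), from 1.70 to 3.45 in lactation (median 3.16) and from 4.40 to 5.11 in involution (median 4.60). Of the 6 lactating mice, 2 were below all nulliparous mice, all 6 were below the nulliparous mean, and all 6 were below all involuting mice. Tek fell by 0.40 (SE 0.10, adjusted p = 0.0192 in limma) in lactation and rose by 0.56 (SE 0.11, adjusted p = 0.000915 in limma) to involution. In fits of only the nulliparous and lactating mice, the fall of Tek and that of Oit3 lost the call (adjusted p = 0.0622 and 0.0574 in limma), and so they did with only mice numbered 200 and above (0.128 and 0.0641).

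Kdr encodes VEGFR2, the main signaling receptor for VEGF-A on endothelium. It ranged from 8.16 to 12.7 TPM in nulliparous mice (median 11.2), from 4.95 to 10.6 in lactation (median 9.62) and from 10.4 to 15.4 in involution (median 12.6). Nulliparous and lactating mice overlapped, and 5 of 6 involuting mice were above all lactating mice. The lactation difference was -0.28 (95% interval -0.58 to 0.01, adjusted p = 0.232 in limma). Kdr rose by 0.51 (SE 0.14, adjusted p = 0.0165 in limma) to involution, and this call was lost under median-ratio scaling (0.36, adjusted p = 0.0842 in limma), under quantile normalization (0.38, 0.0640) and with the number range as a covariate (0.41, 0.0795).

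Pecam1 encodes CD31, an adhesion molecule of endothelial junctions that platelets and leukocytes also carry. It ranged from 5.27 to 8.91 TPM in nulliparous mice (median 8.17), from 4.21 to 7.12 in lactation (median 6.49) and from 9.30 to 10.3 in involution (median 9.77). Every involuting mouse was above every mouse of both other groups, and the involution group was the tightest of the 3. The lactation difference was -0.26 (95% interval -0.49 to -0.03, adjusted p = 0.152 in limma), and without NUL_4, the lowest of its group, it was -0.34 and passed (adjusted p = 0.0320 in limma). Pecam1 rose by 0.59 (SE 0.11, adjusted p = 0.00105 in limma) from lactation to involution.

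Vwf encodes von Willebrand factor, which captures platelets and is more typical of larger liver vessels and of megakaryocytes than of sinusoids. It ranged from 2.91 to 5.36 TPM in nulliparous mice (median 3.53), from 1.42 to 3.41 in lactation (median 2.76) and from 1.99 to 4.74 in involution (median 3.65). Of 6 lactating mice, 4 were below all nulliparous mice, and the involuting mice spanned most of both other ranges. The lactation difference was -0.38 (95% interval -0.72 to -0.03, adjusted p = 0.171 in limma). The difference from lactation to involution was 0.24 (-0.12 to 0.59, adjusted p = 0.344 in limma).

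**Figure D2:**
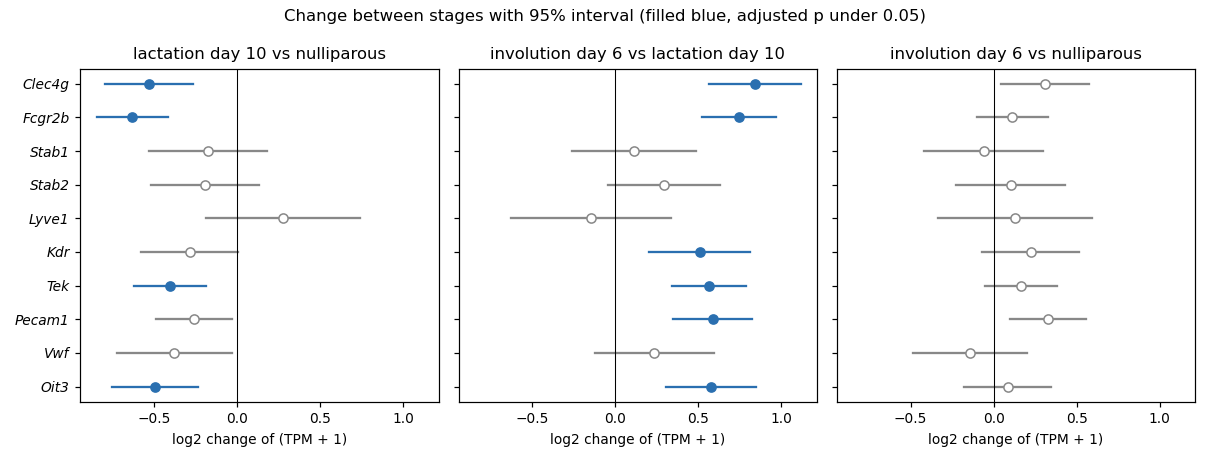
Log2 change of (TPM + 1) of each gene with its 95% interval from limma in the 3 comparisons between stages, filled blue where the adjusted p over all genes is under 0.05. In lactation 4 genes pass, all to the left of 0, between lactation and involution 6 pass, all to the right, and between involution and nulliparous none passes.

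Counted over the comparison of lactation with nulliparous mice, 4 of the 10 genes passed as lower, against 6.49% of all genes tested, and 0 passed as higher, against 2.72%. Of the 10, 6 had an unadjusted p under 0.05, 9 of 10 estimates were below 0, and their median was -0.33 beside -0.03 over all genes. Of the 10, 2 (Fcgr2b and Oit3) were lower in every lactating than in every nulliparous mouse, against 2.29% of all genes. Under the study's own rule, which also asks for a log2 change of at least 1 in size, 0 of the 10 were called in limma, against 0.746% of all genes. Without LAC_36, the lowest in 7 of the 10 genes, the same count of 4 passed, with estimates between -0.53 for Fcgr2b and -0.30 for Tek.

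In the comparison of involution with lactation, 6 of the 10 passed as higher, against 18.1% of all genes, and 0 as lower, against 4.73%. The median estimate was 0.54 beside 0.10 over all genes. A count of 5 genes (Clec4g, Fcgr2b, Tek, Pecam1 and Oit3) were higher in every involuting than in every lactating mouse, against 9.30% of all genes. The study's rule called 0 of the 10 in limma, against 1.93% of all genes, and 6 of the 10 had an unadjusted p under 0.05. This comparison shares its lactating mice with the one before, so the 2 sets of values are not independent of each other. Median-ratio scaling moved the median of all genes by 0.10, to -0.0049, and that of the 10 genes to 0.39, and 5 of the 10 passed as higher.

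Scaling also moved the split of calls over all genes. As deposited, 29.5% of the genes called between lactation and nulliparous were higher in lactation and 79.3% of those called between involution and lactation were higher in involution, whereas after median-ratio scaling these shares were 50.3% and 49.1%. The share of all genes called lower in lactation was then 4.53%, with 4 of the 10 sinusoidal genes among them, and the share called higher in involution was 8.03%. Between involution and nulliparous the share of higher calls went from 79.1% to 43.5%.

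Between involution day 6 and nulliparous mice, 0 of the 10 genes passed in limma in either direction, with 2 at an unadjusted p under 0.05 (Clec4g and Pecam1) and a median estimate of 0.12, against 0.912% of all genes called lower and 3.44% called higher. The study's rule called 0 of the 10, against 0.253% of all genes. Pecam1 had the largest estimate, 0.33 (95% interval 0.10 to 0.56, adjusted p = 0.0878 in limma), with no overlap between the groups. Clec4g followed with 0.31 (0.05 to 0.58, adjusted p = 0.142 in limma), and it passed without LAC_36, a mouse that enters this comparison only through the shared spread (adjusted p = 0.0488 in limma), and in a fit of these 2 groups alone (0.0474). The intervals of the other 8 genes all included 0 and ran from -0.49 for the lower end of Vwf to 0.59 for the upper end of Lyve1. A missed threshold does not show that the levels were equal.

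Summed over the 10 genes, TPM ran from 176 to 225 in nulliparous mice (median 215.7), from 103 to 174 in lactating mice (median 158) and from 233 to 253 in involuting mice (median 240). The sums of the 3 groups did not overlap, although the highest lactating mouse (174) lay close to the lowest nulliparous one (176). The sum is weighted by Clec4g and Fcgr2b. When each gene had equal weight, as a mean z score over the 19 mice, nulliparous mice ran from -0.81 to 0.85, lactating mice from -1.88 to -0.30 and involuting mice from 0.29 to 0.76, so that nulliparous and lactating mice overlapped.

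The genes were also compared mouse by mouse after the mean of each stage and number range had been subtracted, which leaves only differences among mice of the same kind. Over the 19 mice, 36 of the 45 pairs of genes had a Pearson's r above 0, with a median of 0.43. Fcgr2b, Kdr, Oit3, Pecam1 and Tek formed the closest block, with r from 0.73 (Fcgr2b and Tek) to 0.87 (Fcgr2b and Kdr, Spearman's rho 0.83). Among the 10 genes Stab1 was most like Stab2 (r = 0.62, rho = 0.56), and Vwf went against 7 of the other 9 genes (median r = -0.35). These values lean on NUL_4 and LAC_36, the 2 farthest from the median of the mean z score. Without them the median over pairs was 0.24, 30 of 45 were above 0, and Vwf had a median r of -0.29. Within the block r then ran from 0.33 (Tek and Oit3) to 0.72 (Kdr and Pecam1), with 0.40 for Fcgr2b and Tek and 0.68 for Fcgr2b and Kdr. Stab1 was then most like Kdr (0.64) and had r = 0.50 with Stab2. The r of Clec4g turned from 0.46 to -0.29 with Fcgr2b, from 0.44 to -0.46 with Kdr and from 0.50 to -0.36 with Tek. Points share a library and its scaling, and the correlations are descriptions.

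**Figure D3:**
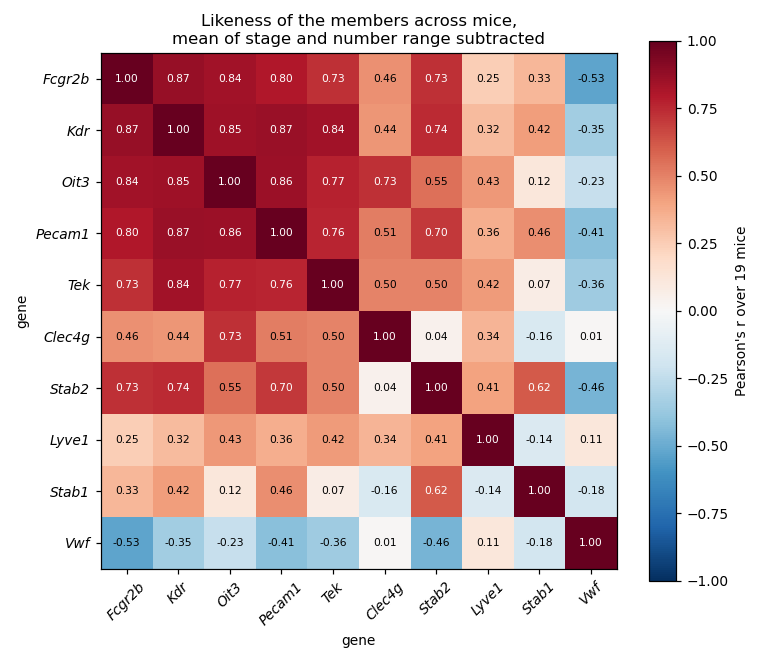
Pearson's r between each pair of the 10 genes over 19 mice after subtraction of the mean of each stage and number range, on a color scale from -1 (blue) to 1 (red). Fcgr2b, Kdr, Oit3, Pecam1 and Tek form a red block with r of 0.73 and above, which without mice NUL_4 and LAC_36 (not plotted) ran from 0.33 to 0.72, and the row of Vwf is mostly blue.

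Among the 11595 other genes averaging 1 TPM or more, the one most like the mean z score of the 10 was Mrc1, the mannose receptor of sinusoidal endothelium and macrophages (r = 0.93, rho = 0.86 over 19 mice, and r = 0.83 without mice NUL_4 and LAC_36). Dnase1l3, a secreted nuclease of sinusoidal endothelium and macrophages, followed (0.91 and 0.85, and 0.80 without those mice). The rest of the 10 most alike genes were F8 (coagulation factor VIII), Flt4 (VEGFR3), Pcdh12 (an endothelial protocadherin), Flt1 (VEGFR1), Aqp1 (a water channel), Tgfbr3 (betaglycan), Ptprb (an endothelial phosphatase) and Alg3 (an enzyme of glycan assembly), with r from 0.88 down to 0.83. Without mice NUL_4 and LAC_36, r for these 10 ran from 0.62 to 0.83. Taken singly, Kdr, Tek and Oit3 were each most like Mrc1 (r = 0.94, 0.91 and 0.88), Fcgr2b was most like Pcdh12 (0.89), Pecam1 like Dnase1l3 (0.88) and Stab2 like Dab2, an endocytic adaptor (0.90). Stab1 was most like Csf1, a macrophage growth factor (0.90), and Lyve1 like Cd84, a leukocyte receptor (0.75). Clec4g was most like Cyp4b1, a cytochrome P450 (0.92), and Vwf like Tmem38b, an ion channel of the endoplasmic reticulum (0.81).

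Other genes of the same cells gave the following counts. For these and all later lists, the shares over all genes tested were 6.49% lower and 2.72% higher in lactation. From lactation to involution they were 4.73% lower and 18.1% higher, and from nulliparous to involution 0.912% lower and 3.44% higher. Of 20 further genes known from sinusoidal endothelium, 3 fell in lactation and 0 rose (median -0.21), and 11 rose and 2 fell to involution (median 0.46). Mrc1 fell by 0.49 and then rose by 0.76 (adjusted p = 0.0178 and 0.00036 in limma), Dnase1l3 fell by 0.46 and Adgrl4, an adhesion G protein-coupled receptor, by 0.65 in lactation. Cldn5, a tight junction gene, rose by 0.71 to involution. The 2 that fell to involution were Cd36, a fatty acid translocase (by 1.17), and Aass, an enzyme of lysine breakdown (by 0.75), which hepatocytes also express. The lactation count for this list was 1 when NUL_220 or NUL_226 or LAC_36 or LAC_213 was left out, 7 without NUL_4 and with the number range as a covariate, 1 under median-ratio scaling and 0 when only these groups were fitted in limma (in the fit of all mice, 11 had an unadjusted p under 0.05). The involution count went from 13 to 7 without LAC_36, with the covariate and under quantile normalization, and to 8 under median-ratio scaling and with only mice numbered 200 and above.

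Of 22 genes shared by endothelium in general, 3 fell in lactation (Icam2 by 0.46, Klf2 by 0.45 and Ecscr by 0.34, median of the list -0.24) and 16 rose to involution (median 0.41). Icam2, an adhesion ligand, rose by 0.85, Cdh5, the cadherin of endothelial junctions, by 0.84, Klf2, a factor induced by flow, by 0.78 and S1pr1, a sphingosine phosphate receptor, by 0.70. The lactation count became 0 without LAC_36 or LAC_102, 0 under quantile normalization, 1 without NUL_220, 8 without NUL_4 and 6 with the number range as a covariate. The involution count was 10 under median-ratio scaling. Between involution and nulliparous, 0 of the 22 passed in limma, with 11 at an unadjusted p under 0.05, and 1 of the other 20 did (Tfec, a transcription factor, higher by 0.40). The first of these counts was 3 without NUL_227 and 1 without NUL_220, NUL_226 or LAC_36, and the second was 0 under median-ratio scaling and quantile normalization, where Tfec lost the call, and 2 with the number range as a covariate.

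Among 14 listed genes of VEGF and angiopoietin signaling, with Kdr and Tek left out, 12 were tested. Nrp1, the VEGF coreceptor neuropilin 1, fell by 0.74 (SE 0.13, adjusted p = 0.00111 in limma) in lactation, from a mean of 20.7 ± 3.16 (SD, n = 7) to 12.1 ± 3.24 (SD, n = 6) TPM, and rose by 0.71 (SE 0.13, adjusted p = 0.000752 in limma) to involution. Vegfb, a VEGFR1 ligand, rose by 0.48 in lactation. Angpt1, the activating ligand of TIE2, was under 1 TPM in every mouse and fell by 0.15. Angpt2, the ligand that opposes it in many settings, rose by 0.56, Flt4 by 0.54 and Tie1 by 0.46 from lactation to involution. In all, 2 fell and 1 rose in lactation, against 6.49% and 2.72% of all genes tested. From lactation to involution 4 rose and 0 fell, against 18.1% and 4.73%. The lactation count of 3 became 1 when NUL_13 or LAC_133, LAC_200, LAC_213 or LAC_240 was left out, and with only mice numbered 200 and above. The involution count of 4 became 2 when LAC_36 or LAC_102 or ID6_209 was left out, under median-ratio scaling and quantile normalization, and with the number range as a covariate.

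Of 11 angiocrine factors, the signals that liver endothelium and its neighbors release, 4 fell and 1 rose in lactation, and 5 rose and 1 fell to involution. Hgf, the hepatocyte growth factor that stellate cells also make, fell by 0.58 and rose by 0.57 (adjusted p = 0.000437 and 0.000226 in limma). Bmp2, which controls hepcidin, fell by 0.52 and rose by 0.67, and Wnt2, a signal of the central vein side, fell by 0.31 and rose by 0.45. Nrg1, a ligand of ERBB receptors, went the other way and rose by 0.71 in lactation (adjusted p = 0.000407 in limma). Its means were low, at 0.17 TPM in nulliparous, 0.96 in lactating and 0.44 in involuting mice. Of 12 genes zoned along the sinusoid, 3 fell in lactation (Ltbp4 by 0.59, Wnt2 by 0.31 and Rspo3 by 0.29), against 6.49% of all genes. From lactation to involution 3 rose (Msr1 by 0.80, Wnt2 by 0.45 and Ltbp4 by 0.44), against 18.1% of all genes. Wnt2, Rspo3, Wnt9b, Dll4 and Efnb2 are in both of these lists, and Ntn4 is also among the further sinusoidal genes. Angpt2 is in the angiocrine list and among the VEGF and angiopoietin genes. Flt1, Tie1 and Ptprb are among both those genes and the general endothelial ones.

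Of 11 tested genes of capillaries and larger vessels, 0 passed in lactation in limma, with 6 at an unadjusted p under 0.05. From lactation to involution 5 rose, among them the adhesion molecules Vcam1 (by 0.89) and Icam1 (by 0.82). Plvap, a diaphragm protein, rose by 0.47 and Clu, a chaperone that hepatocytes also make, by 0.40. Their nulliparous means were 31.1 TPM for Plvap and 935 for Clu. Cd34 and Emcn of this list are also among the general endothelial genes. The lactation count was 3 without NUL_4, with the number range as a covariate and with only mice numbered 200 and above, 2 without LAC_133 and 1 without NUL_1, NUL_13 or LAC_102. The involution count was 2 under median-ratio scaling and 3 under quantile normalization. Of 6 lymphatic genes, Reln fell by 0.61 in lactation and Flt4 rose by 0.54 to involution. Reln is counted again among the stellate cell genes. Flt4 is counted also among the further sinusoidal genes and the VEGF and angiopoietin genes. The lactation count of 1 became 2 without NUL_4, NUL_226, LAC_36 or LAC_200 and with the covariate, and 0 with only mice numbered 200 and above. Flt4 lost its call under median-ratio scaling, quantile normalization and the covariate, and without LAC_102, ID6_209, ID6_230 or ID6_232, whereas the involution count was 2 without NUL_4, NUL_221, LAC_213 or ID6_201 and 3 without ID6_216. Among 5 tested genes that make, bind or degrade hyaluronan, the ligand of Stab2 and Lyve1, Hmmr rose by 0.75 in lactation. It fell by 1.01 to involution, with low means of 0.36 TPM in nulliparous, 1.29 in lactating and 0.10 in involuting mice. Mki67, the gene of the proliferation marker Ki67, changed by 0.78 and -0.87 over these comparisons, and a link was not tested. Cd44 rose by 0.999 and the hyaluronidase Hyal1 fell by 0.53 to involution. The lactation count of 1 became 2 without NUL_4 or LAC_200 and with the covariate. The synthases Has1, Has2 and Has3 were under 1 TPM in every mouse.

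Markers of other liver cells moved over the same stages, and these values stand beside every change given above. Of 12 Kupffer cell genes (resident macrophages), 11 fell in lactation (median -0.60) and 12 rose to involution (median 1.23). Their summed TPM was 301 to 565 in nulliparous, 205 to 391 in lactating and 632 to 844 in involuting mice, and none was at 0. Vsig4 fell by 0.75 and rose by 1.46, and Cd5l fell by 0.68 and rose by 1.84. All 12 also passed as higher in involution than in nulliparous mice (median 0.71), a count of 7 under median-ratio scaling and 3 with only mice numbered 200 and above. The lactation count was 6 or 7 when NUL_220, NUL_226 or NUL_227 or LAC_36 or LAC_102 was left out, and the count against nulliparous mice was 7 when NUL_1 or NUL_13 or ID6_216 was left out. Fcgr2b, Stab1, Lyve1, Mrc1 and Dnase1l3 can come from macrophages too, as can Msr1, the macrophage scavenger receptor. The part of these cells in the values was not tested.

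Of 12 hepatic stellate cell genes, 6 fell in lactation (median -0.41) and 6 rose to involution (median 0.36), among which Dcn, a matrix proteoglycan, fell by 0.53 and rose by 0.50. Colec11, a collectin, fell by 0.52 and rose by 0.70. Their summed TPM was 284 to 405, 228 to 270 and 310 to 378 in the 3 groups. Of 12 tested genes of other leukocytes, 4 fell in lactation and 11 rose to involution, with Ptprc (CD45) falling by 0.52 and rising by 1.14, and their sums were 8.30 to 28.0, 7.11 to 14.1 and 23.6 to 30.7 TPM. Their lactation count ran from 1 (without LAC_102) to 7 (without NUL_4), and was 2 when NUL_221, NUL_226 or NUL_227 or LAC_36, LAC_133 or LAC_240 was left out. Their involution count was 7 with the number range as a covariate. It was 4 with the filter at a mean of 1 TPM, which takes the genes of lower mean out of the test. Of the 14 listed, 5 were under 1 TPM in every mouse. Of 5 tested platelet genes, 0 passed in either comparison in limma, with 2 at an unadjusted p under 0.05 in lactation and 1 from lactation to involution, sums were 3.94 to 9.29 TPM over the 19 mice, and 4 of the 7 listed were under 1 TPM in every mouse.

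Of 8 hepatocyte genes, Alb rose by 0.86 in lactation and fell by 0.68 to involution, Ttr rose by 0.72 to involution, and the other 6 did not pass in these comparisons. The lactation count of 1 was 0 under quantile normalization and 2 with the number range as a covariate. The involution count of 2 was 1 under median-ratio scaling, quantile normalization and the covariate, and without LAC_36, LAC_102, LAC_133, ID6_209, ID6_218, ID6_230 or ID6_232. Of 5 tested cholangiocyte genes, Spp1 fell by 0.71 and rose by 0.59. Of the 5 tested erythroid genes, 0 passed in lactation in limma, with 0 at an unadjusted p under 0.05, and all fell to involution (median -2.90), with sums of 1144 to 2408, 1331 to 3336 and 197 to 847 TPM in the 3 groups. The part of these cells in the values of the 10 genes was not tested.

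**Figure D4:**
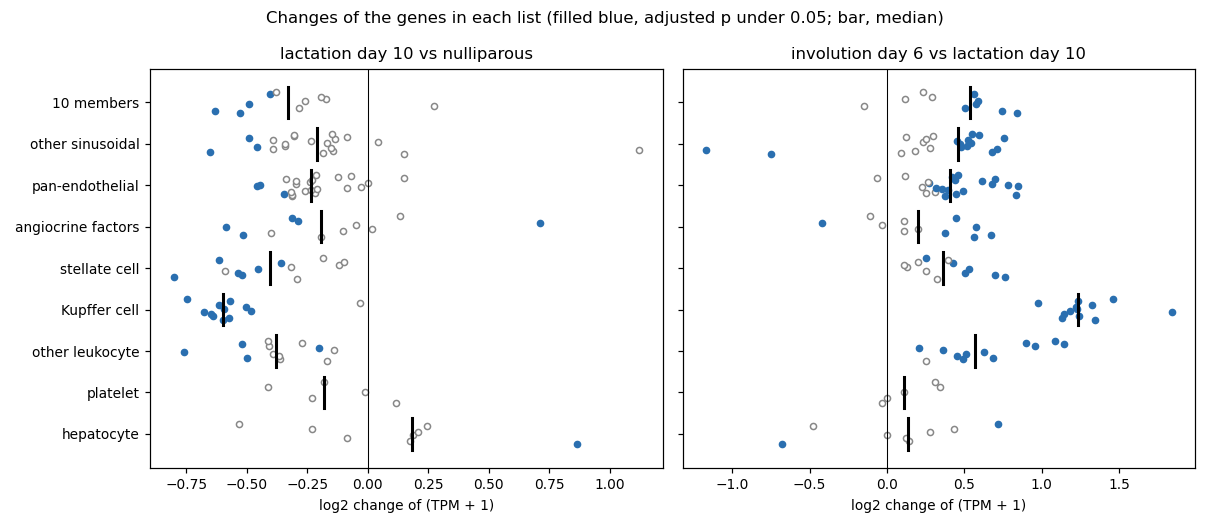
Log2 change of (TPM + 1) of each tested gene by list, with lactation against nulliparous on the left and involution against lactation on the right, filled blue where the adjusted p in limma is under 0.05, and a bar at the list's median. The 10 sinusoidal genes have medians of -0.33 and 0.54, between the pan-endothelial genes (-0.24 and 0.41) and the Kupffer cell genes (-0.60 and 1.23). The other leukocyte genes (-0.38 and 0.57) and the stellate cell genes (-0.41 and 0.36) have medians on the same sides of 0.

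The genes lie on 9 chromosomes of GRCm38, with Stab2 and Oit3 both on chromosome 10. By GENCODE release M21, Stab2 (ENSMUSG00000035459) spans chr10:86841198-87008025 and Oit3 (ENSMUSG00000009654) chr10:59422958-59441778, both on the minus strand. Fcgr2b (ENSMUSG00000026656) spans chr1:170958617-170976547 and Clec4g (ENSMUSG00000074491) chr8:3707064-3720651, both on the minus strand, and Tek (ENSMUSG00000006386) spans chr4:94739289-94874976 on the plus strand. Exons of 4 of the 10 genes share a short stretch with a gene on the other strand, namely 112 bases of Stab1 with Nt5dc2, 141 of Stab2 with Gm16268, 146 of Clec4g with Gm16553 and 155 of Fcgr2b with Gm38204. Whether the counting used strand is not given in the sources used here, so reads in those stretches are uncertain between the 2 genes. They are a small part of merged exon lengths of 10288, 8757, 2462 and 5790 bases.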

How the data were processed

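Liver poly(A) RNA of 7 nulliparous, 6 lactating and 6 involuting mice was analysed. The authors prepared libraries with a NEBNext Ultra kit, sequenced paired-end reads, aligned them to GRCm38 and quantified genes with RSEM 1.3.1, and the values they deposited are TPM per gene and mouse, with 2 decimals and without read counts. TPM sum to the same total in every library, so a rise of abundant genes lowers the rest. RSEM shares out reads that fit several genes. The authors' own tests used DESeq2 on counts, which TPM do not allow.

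From the TPM, log2(TPM + 1) was computed. Of 51826 entries, 16230 averaged 0.1 TPM or more and entered limma-trend (limma 3.58.1, R 4.3.3), with a mean per stage, all 19 mice and Benjamini-Hochberg adjustment over all of these. A gene passed at an adjusted p under 0.05. Differences between animal number ranges (split at 200) came from a fit of the nulliparous and lactating mice with terms for stage and range. Stage changes within a range, and the difference of the lactation changes, came from a fit of all 19 mice with a mean per stage and range. P-values measure the spread between animals, 1 library each. The test was tried on simulated data for the lactation comparison with 200 changed genes among 16230: of those given a log2 change of -0.5 it recovered 105, and of those given -1 it recovered 185. Unchanged genes that passed numbered 10 and 8. The changed genes averaged at least 1 TPM, noise was drawn independently from a normal distribution, and no number range difference was built in. The real data differ in this, so these shares need not hold for them.

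The 10 genes and all lists were chosen with earlier results of these data known. Within lists, genes that passed were named, at most 4 per list and comparison, largest change first. For likeness, the 10 genes of at least 1 TPM with the highest Pearson correlation were named, and the most alike gene for each of the 10. Alternatives left out each mouse in turn, kept only the groups compared or only the upper number range, added the range as a covariate, used pseudocounts of 0.1 and 0.5, dropped the filter or set it to 1 TPM, and used quantile normalization, median-ratio scaling and robust moderation. Leaving out mice NUL_4 and LAC_36 together for the correlations was chosen after seeing the data. Positions are from GENCODE M21 and promoters from RefSeq, for which the 250 bases before each start were searched on both strands. Figures were drawn with matplotlib 3.10.9 in Python 3.11.15.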

Additional observations from a re-analysis of the deposited data

Results flagged for a closer look

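A set of 3 values stood far from their group by Dixon's test, and all of them belonged to the lowest lactating mouse, LAC_36. Its Tek was 1.70 TPM, with the next lactating mouse at 2.84. Its Pecam1 was 4.21 TPM, with the next at 6.30. Its Oit3 was 5.37 TPM, with the next at 9.54. The gap to the neighbor made up 0.651, 0.718 and 0.644 of the range of the group. Of 30 groups checked (10 genes in 3 stages) these 3 stood out, and chance marks about 1 group in 20. The 3 values come from 1 library and are not independent. In the same mouse the summed TPM of the pan-endothelial genes (97.7), of the Kupffer cell genes (205) and of the angiocrine genes (12.0) were also the lowest of all 19 mice, as were those of the zoned sinusoidal genes and the platelet genes. Counted from the lowest of 19, its sums ranked 2 for other leukocytes, 3 for stellate cells and 5 for capillaries and larger vessels. They ranked 6 for the further sinusoidal genes, 7 for cholangiocytes, and 10 for the lymphatic and the erythroid genes. The rank was also 10 for the VEGF and angiopoietin genes, 14 for hepatocyte and 17 for hyaluronan genes. Single abundant genes weigh on some sums, as Ctsl had a nulliparous mean of 497 TPM beside 814 for the further sinusoidal list. Clu had 935 beside 1026 for capillaries and larger vessels, and Vegfa 73.9 beside 129 for the VEGF and angiopoietin genes. Without it the falls of Tek and Oit3 in lactation still passed, with log2 changes of -0.30 and -0.34 and adjusted p of 0.0299 and 0.00897 in limma.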

How the results depend on the processing

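The count of genes that passed between lactation and nulliparous was 4 and ran from 4 to 5 with each mouse left out, and it was 2 when only these groups were fitted and 3 with only mice numbered 200 and above, where Stab1 replaced Tek and Oit3. In the fit with a mean per stage and number range it was 4 under 200 and 1 at 200 and above, and there between involution and lactation 4 passed. Between involution and lactation it was 6 and stayed 6 with each mouse left out, and 5 under median-ratio scaling, quantile normalization and the number range as a covariate, each time without Kdr. Between involution and nulliparous it was 0, with 0 to 1 as mice were left out (1 without LAC_36), and 1 when only these groups were fitted. The count for the number ranges went from 1 to 0 under median-ratio scaling. Among the 10 genes, signs turned only for stage differences that had not passed. From lactation to involution, Stab1 was -0.038 under median-ratio scaling, -0.0084 under quantile normalization and -0.021 with the number range as a covariate. From nulliparous to involution, Oit3 was -0.016 under median-ratio scaling and -0.031 under quantile normalization, Stab2 was -0.010 under quantile normalization, Lyve1 was -0.035 with the covariate and -0.21 with only mice numbered 200 and above, and Stab1 ran from -0.22 to 0.020 as mice were left out, above 0 without ID6_201. Lyve1 in lactation was -0.10 with only mice numbered 200 and above. The cause was not tested. Counts for the comparison lists moved by over 1.5 times, or to or from 0, in 190 recomputations and did neither in 1115. No paired analysis was possible because the animal numbers are not shared between groups. TPM keep no depth, so the precision of the low genes (Lyve1, Vwf and Tek) is known from mice alone.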
